A study of Saccharomyces cerevisiae with 12 samples.

Results

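The genes described here encode 18 cytosolic aminoacyl-tRNA synthetases or their subunits, 13 translation initiation factors and 10 translation elongation factors of Saccharomyces cerevisiae, 41 genes in all. They were taken from a fixed list of names, which was matched through the annotation of genome build R64 to the yeast rows of the deposited table, and all 41 matched one of its 7127 yeast rows. RNA was sequenced from BY4742, a haploid MAT alpha laboratory strain, genotype wild type, in synthetic dextrose (SD) medium with 2% glucose and 7 mM KCl, 2% glucose and 1 mM KCl, 0.5% glucose and 7 mM KCl, or 0.5% glucose and 1 mM KCl. Each medium held 3 biological replicates, for 12 libraries, and all 12 carried 1 batch label. The series title sets potassium restriction beside caloric restriction in the extension of chronological lifespan, which is how long non-dividing cells stay alive. Age and growth stage of the cultures at harvest were not stated in the sources used here, and the libraries came from 1 strain. BY4742 is known to lack LEU2, LYS2, URA3 and part of HIS3, so all groups share these deletions.

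Aminoacyl-tRNA synthetases load each tRNA with its amino acid, and initiation factors bring the small ribosomal subunit, the initiator tRNA and the mRNA together at the start codon. Elongation factors then deliver charged tRNAs and move the ribosome along the mRNA, and fungi need an additional elongation factor, eEF3. In yeast most of these genes are strongly expressed during rapid growth and lowered when nutrients run out. The general amino acid control pathway, in which the kinase Gcn2 senses uncharged tRNA and the activator Gcn4 binds promoters that carry TGACTC, is known to act on several synthetase genes.

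Levels are given as CPM, the yeast counts of a gene scaled to a common library total, after TMM scaling, which sets the bulk of genes equal between libraries, so they are levels relative to the bulk of yeast genes. Fewer cells that use a gene, less of its RNA per cell and a change in total RNA per cell cannot be told apart. Errors of CPM are the standard deviation (SD, n = 3), and a log2 fold change is followed by its standard error (SE). A gene is said to rise or fall where edgeR's quasi-likelihood test, adjusted over 6127 genes, gave p under 0.05. Unless another fit is named, shares of all genes are those of this test with all 12 libraries. Counts over all genes at an unadjusted p, or from the alternative method DESeq2, are given where a comparison is first counted that way. The 3 replicates of each medium are labelled as biological, and p-values rest on their spread.

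The libraries held 5634205 to 7036345 counts at yeast rows, and the 41 genes took 1.13% to 3.27% of them. Of the genes that mark the strain, URA3, LEU2, LYS2 and the a-factor genes MFA1 and MFA2 were listed at 0 in all 12 libraries, and the alpha-factor gene MF(ALPHA)1 was present in all 12. HIS3 lay at 3.70 to 177 CPM, and the a-specific gene STE2 at 7.18 to 17.7. In the 0.5% glucose 7 mM K group, replicate 2 stood apart, with 711 genes over 2-fold above or below every other library, against 60 or fewer for any of the other 11. Of the 40 members tested, 35 had their lowest value of all 12 libraries in that replicate, and the median member differed from its mean in the partner replicates by -1.26 (log2). These differences ran from -2.92 for EFB1 to 1.29 for HEF3. The main counts and fold changes that rest on this library are followed by their values without it ("without replicate 2"). Replicate 3 of 0.5% glucose 1 mM K came next, with 60 genes over 2-fold outside every other library. In it, 35 of the 40 members lay below their mean in its partner replicates, at a median difference of -0.44 (log2). Ribosomal RNA genes took 0.910% ± 0.112 and 1.63% ± 0.563 of yeast counts at 2% glucose with 7 and 1 mM K, and 1.31% ± 0.123 and 2.46% ± 0.167 at 0.5% glucose. Their part in the results was not tested.

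Several members are near-identical paralogs, and short stretches of their coding sequence are shown because they set what the counts can tell apart. In the following lines of build R64, on the coding strand, capitals mark the bases that differ between the genes of a pair, and each stretch is the 60 bases of the pair with the most differences.
TIF1, coding bases 169 to 228: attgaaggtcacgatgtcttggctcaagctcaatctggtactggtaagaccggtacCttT
TIF2, coding bases 169 to 228: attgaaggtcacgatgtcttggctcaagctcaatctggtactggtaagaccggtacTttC
TEF1, coding bases 703 to 762: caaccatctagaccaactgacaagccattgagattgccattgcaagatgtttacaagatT
TEF2, coding bases 703 to 762: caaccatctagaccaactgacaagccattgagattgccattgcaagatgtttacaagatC
YEF3, coding bases 143 to 202: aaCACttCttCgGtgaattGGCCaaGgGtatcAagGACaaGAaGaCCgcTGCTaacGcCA
HEF3, coding bases 143 to 202: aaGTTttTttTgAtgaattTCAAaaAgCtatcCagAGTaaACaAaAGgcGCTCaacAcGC
The coding sequences of TIF1 and TIF2 differed at 6 of 1188 bases, those of TEF1 and TEF2 at 2 of 1377 and those of EFT1 and EFT2 at 4 of 2529. Of all 150-base windows, the length of 1 read, 63.2% were identical between TIF1 and TIF2, 81.9% between TEF1 and TEF2 and 74.8% between EFT1 and EFT2. How counts were divided between the genes of these pairs is therefore uncertain, and their sums are given too. YEF3 and HEF3 were 74.7% identical and HYP2 and ANB1 90.9%, and 0% of the 150-base windows were the same in either pair, so reads within the coding sequence tell these genes apart. Apart from the paralogs, TEF4 overlaps SNR38 and EFB1 overlaps SNR18, small nucleolar RNA genes within their introns.

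The core of the Gcn4 site, TGACTC on either strand, lay within 500 bases upstream of the start codon of 7 of the 18 synthetase genes, of 1 of the 13 initiation factor genes and of 0 of the 10 elongation factor genes, against 12.65% of 6000 protein-coding genes. Windows of 30 bases around the core are shown for 4 synthetase genes, with the core in capitals and the bases read along the strand of the gene. Those of KRS1, ILS1 and ALA1 belong to genes whose response to potassium differed between the glucose levels, and DED81 holds the only full TGACTCA among the 41. For DED81, SES1, THS1 and VAS1, which also hold the core, that difference did not pass with all 12 libraries, while TYS1 passed without the core.
KRS1, chrIV:525294-525323, forward strand: tgaatgatgaaaTGACTCttaatgaacttc
ILS1, chrII:84346-84375, reverse strand: tcgaaacaatgaTGACTCttaagcatgaaa
ALA1, chrXV:949139-949168, reverse strand: gattaaggaactTGACTCtttctttcaaga
DED81, chrVIII:143802-143831, reverse strand: caagacattcagTGACTCaagcatcgctta
The core began 134 bases before the start codon in KRS1, 102 in ILS1, 47 in ALA1 and 261 in DED81. The full TGACTCA, which contains the core, was found upstream of 4.0% of the 6000 genes. CACCCA, a core that many sites of the activator Rap1 hold, lay upstream of 7 of the 10 elongation factor genes (EFT1, EFT2, HYP2, TEF1, TEF2, TEF4 and YEF3), 6 synthetase genes and 1 initiation factor gene, against 14.1% of the 6000. A match describes these letters only.

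Compared per length, the levels of the 41 genes spanned a wide range. TEF2 and TEF1, which encode the elongation factor eEF1A, led with 6296 and 2705 CPM per kilobase of coding sequence as the mean of the 4 media, followed by HYP2 (1190.1), and these genes were the 3 highest in every medium. The lowest tested member on that scale was MES1 in both media with 2% glucose, at 44.1 CPM per kilobase with 7 mM K and 64.5 with 1 mM K, and NIP1 in 0.5% glucose 1 mM K, at 57.4. For 31 of the 41 genes, the group mean was lowest in 0.5% glucose with 7 mM K, and for 24 without replicate 2. The highest mean lay in 2% glucose 1 mM K for 18 genes, in 0.5% glucose 1 mM K for 15, in 2% glucose 7 mM K for 6 and in 0.5% glucose 7 mM K for 2, HEF3 and ANB1, to which EFT2 was added without replicate 2. Summed over the 18 synthetase genes, the level was 4604 ± 243 CPM in 2% glucose 7 mM K, 5655 ± 384 in 2% glucose 1 mM K, 2532 ± 853 in 0.5% glucose 7 mM K and 5169 ± 651 in 0.5% glucose 1 mM K. Without replicate 2 the sum in 0.5% glucose 7 mM K came to 3009 CPM, with both libraries (3224 and 2794) still below the other 9.

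**Figure D1:**
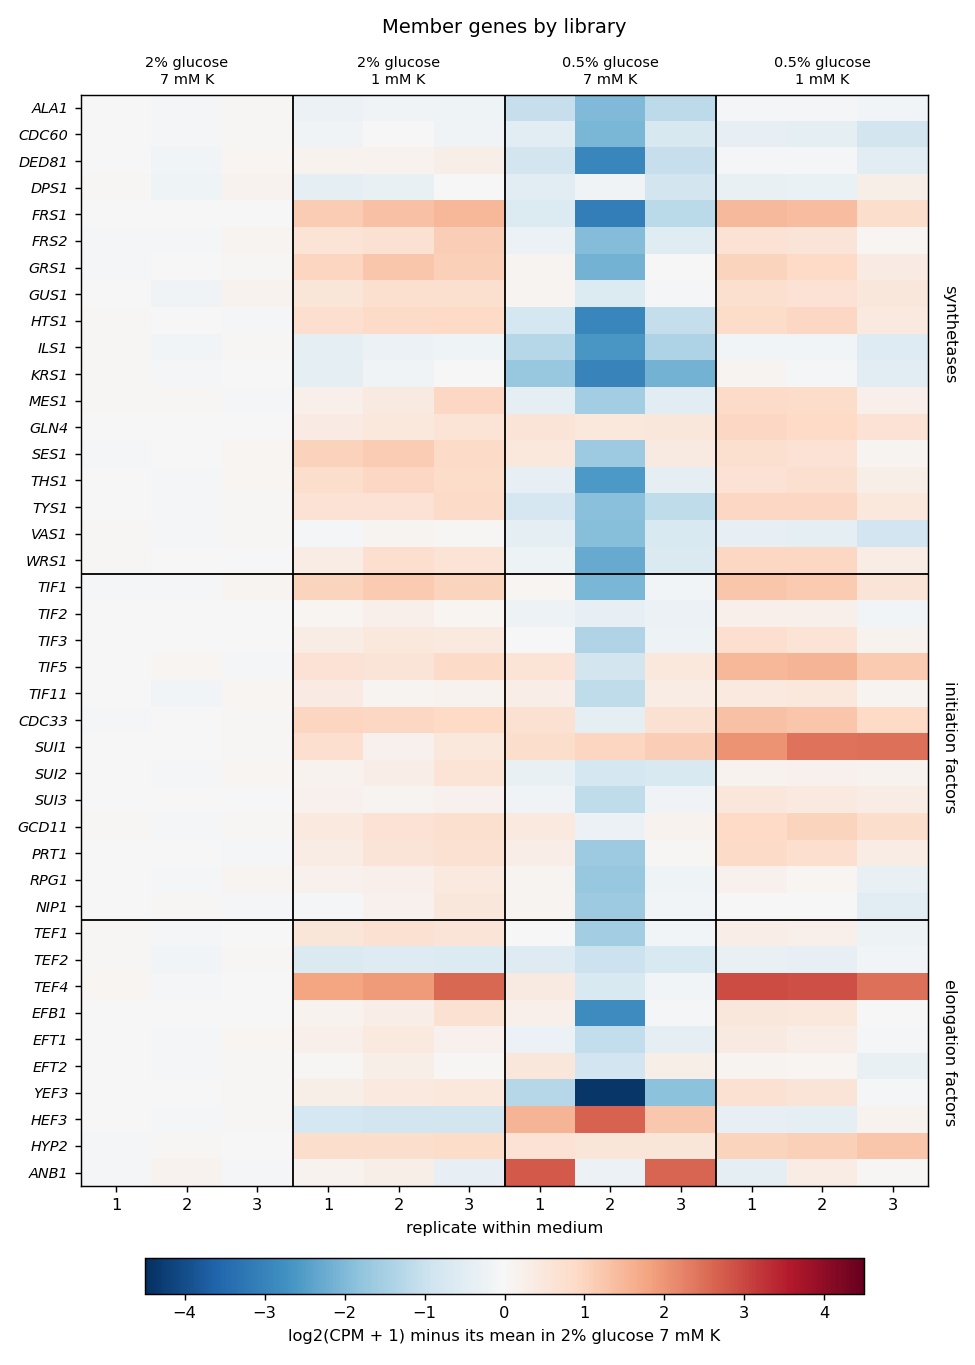
Heat map of the 41 genes (rows, by role) in the 12 libraries (columns, 3 replicates per medium); color is log2(CPM + 1) minus its mean in the 2% glucose 7 mM K libraries. The column of 0.5% glucose 7 mM K replicate 2 is the lowest of the 12 for 35 of the 40 tested genes, while HEF3 is high in all 3 libraries of that medium.

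For lower potassium at 2% glucose, 32 of the 40 members tested did not pass. Of the 40, 8 rose and 0 fell in edgeR (16 and 2 at an unadjusted p under 0.05, and 12 and 2 in DESeq2), while 13.1% of all genes rose and 15.0% fell. At an unadjusted p under 0.05, 2487 of the 6127 genes passed in either direction, and in DESeq2 944 rose and 1188 fell. The 8 were the synthetase genes FRS1, GLN4, GUS1 and TYS1, the initiation factor genes CDC33 and GCD11 and the elongation factor genes TEF4 and HYP2. The median log2 fold change of the members was 0.46, against -0.00 for all genes. Without replicate 2 of 0.5% glucose 7 mM K, a library of neither compared group that entered the shared estimate of the spread, 22 rose and 2, HEF3 and TEF2, fell at nearly the same median of 0.47, while 26.6% and 23.9% of all genes did. Conversely, 2, 3 and 2 members rose without replicate 1, 2 or 3 of 2% glucose 7 mM K, and 5 and 3 without replicate 2 or 3 of 2% glucose 1 mM K, so the calls of 2 genes, TEF4 and HYP2, held without each library in turn. Of the 6163 to 6169 genes tested in these fits, 507, 573 and 502 rose without replicate 1, 2 or 3 of 2% glucose 7 mM K. Without replicate 2 or 3 of 2% glucose 1 mM K, 638 and 571 did. Upper-quartile scaling raised the count of members to 15 up and 0 down, where 1238 of the 6127 genes rose and 588 fell.

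At 0.5% glucose, lower potassium went with higher levels of most members. Here 25 rose and 1, HEF3, fell, where 23.5% of all genes rose and 24.9% fell, and the median log2 fold change was 0.82 against -0.02 for all genes. Without replicate 2, 28 rose and 1 fell with a median of 0.61, against 29.6% and 28.2% of all genes. The count depended on how libraries were scaled. With library totals alone 15 members rose and 1 fell, where 1089 of all 6127 genes rose and 1520 fell. Scaling by rows of the same table with WBGene identifiers, which are not yeast gene rows, gave 8 and 1. There 628 of all genes rose and 1985 fell, and this scaling shifted the median of all genes by -0.36.

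Most of the falls among members came with lower glucose at 7 mM K. Among the 40, 12 fell and 4 rose, where 17.0% of all genes fell and 16.9% rose, with a median of -0.42 against 0.03. Without replicate 2, 14 fell and 7 rose and the median moved to -0.14. In that fit 21.8% of all genes fell and 22.0% rose. The split changed with the scaling, to 5 down and 4 up with library totals, 4 and 4 with WBGene rows and 9 and 4 with upper-quartile scaling, and the shift of the median of all genes with WBGene rows was 0.18. Of all 6127 genes, 777 fell and 1035 rose with library totals, 563 and 993 with WBGene rows and 863 and 1396 with upper-quartile scaling. This comparison, the one of potassium at 0.5% glucose and the one between the single restrictions, and the interaction, share the 0.5% glucose 7 mM K libraries. Their values are therefore given side by side and not as repeats of each other.

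In lower glucose at 1 mM K, SUI1 was the only member that rose and 0 fell in edgeR (4 and 0 at an unadjusted p under 0.05, 5 and 0 in DESeq2), where 16.3% of all genes rose and 18.4% fell. At an unadjusted p under 0.05, 2711 of the 6127 genes passed in either direction, and in DESeq2 1181 rose and 1207 fell. Without replicate 2, again a library of neither group, 6 members rose and 5 fell, against 24.2% and 26.9% of all genes. The members' median was 0.03, against -0.02 for all genes, and it was negative under upper-quartile scaling (-0.09), library totals (-0.20) and WBGene scaling (-0.41). The median of all genes moved with it in those settings, to -0.15, -0.27 and -0.48. Both restrictions against neither raised 10 members and lowered 0 (12 and 0 at an unadjusted p under 0.05, 11 and 0 in DESeq2), where 22.8% of all genes rose and 24.5% fell. At an unadjusted p under 0.05, 3380 of the 6127 genes passed in either direction, and in DESeq2 1512 rose and 1621 fell. The 10 members included all 8 that rose with lower potassium at 2% glucose, a comparison with the same 2% glucose 7 mM K libraries, and added SUI1 and TIF5. Without replicate 2 of 0.5% glucose 7 mM K, 22 rose and 2, CDC60 and VAS1, fell, against 33.4% and 31.3% of all genes. Set against each other, 23 members were higher and 1, HEF3, lower in 2% glucose 1 mM K than in 0.5% glucose 7 mM K, where 20.9% of all genes were higher and 23.1% lower. Without replicate 2 the counts were 25 and 1, against 24.9% and 23.3%.

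**Figure D2:**
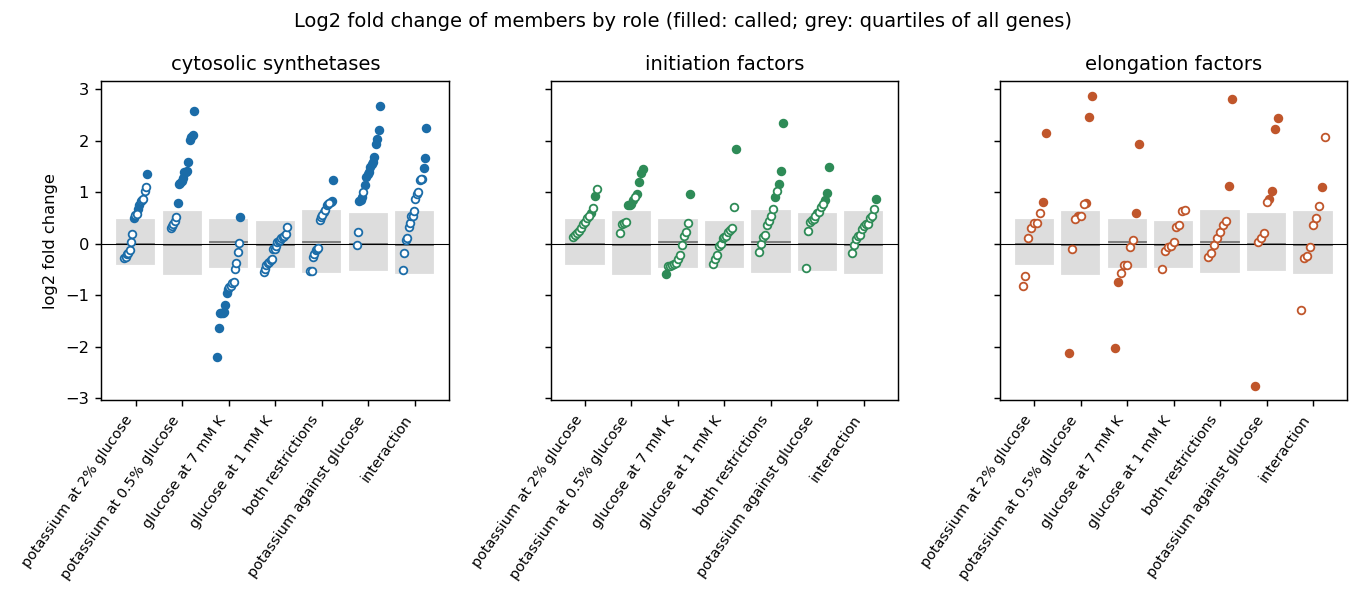
Log2 fold changes (vertical axis) of the tested members in 7 comparisons, by role, with filled points for genes past an adjusted p of 0.05; grey boxes span the quartiles of all 6127 genes and the line in them is their median. Synthetase genes lie at a median of 1.25 for potassium at 0.5% glucose and -0.85 for glucose at 7 mM K, while elongation factor genes spread from -2.12 to 2.88 and from -2.03 to 1.93.

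Among the 18 synthetase genes, lower potassium at 0.5% glucose raised 13 and lowered 0 in edgeR (14 and 0 at an unadjusted p under 0.05 and in DESeq2), where 23.5% of all genes rose and 24.9% fell. At an unadjusted p under 0.05, 3401 of the 6127 genes passed in either direction, and in DESeq2 1603 rose and 1632 fell. All 18 fold changes of the synthetase genes were above 0, at a median of 1.25, and without replicate 2 the counts were 14 and 0 at a median of 0.92. In that fit 29.6% of all genes rose and 28.2% fell. Lower glucose at 7 mM K lowered 9 and raised 1, GLN4, against 17.0% and 16.9% of all genes, with a median of -0.85. Without replicate 2 it lowered 11 and raised 2, where 21.8% of all genes fell and 22.0% rose, at a median of -0.58. The single restrictions differed in 15 of the 18 genes, all of them higher in 2% glucose 1 mM K, where 20.9% of all genes were, at a median of 1.38. Without replicate 2, 16 of them were higher, against 24.9% of all genes, at a median of 1.05. In lower glucose at 1 mM K, edgeR called 0 synthetase genes in either direction, with 1 up at an unadjusted p under 0.05 and 1 up in DESeq2, where 16.3% of all genes rose and 18.4% fell. Without replicate 2, 1 rose and 4 fell, against 24.2% and 26.9% of all genes. DPS1 and SES1, the genes of the aspartyl and seryl enzymes, passed in 0 of the 7 comparisons with all 12 libraries in edgeR, and each passed in at least 1 without replicate 2.

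KRS1 encodes the lysyl-tRNA synthetase (chrIV:525440-527215). Its level was 443, 408 and 437 CPM in the 3 libraries of 2% glucose 7 mM K and 322, 385 and 435 in 2% glucose 1 mM K. It held 129.6, 52.6 and 97.7 in 0.5% glucose 7 mM K and 464, 415 and 299 in 0.5% glucose 1 mM K. The 3 libraries of 0.5% glucose 7 mM K were the lowest of the 12 and did not overlap any other group, whereas the other 3 media overlapped. With lower glucose at 7 mM K, KRS1 fell, at -2.20 ± 0.30 (edgeR adjusted p = 0.000194) on the log2 scale, and lower potassium at 0.5% glucose raised it by 2.07 ± 0.30 (edgeR adjusted p = 0.000204). Without replicate 2 these were -1.92 ± 0.21 and 1.80 ± 0.21. At 2% glucose, the change with lower potassium was -0.17 ± 0.28 (edgeR adjusted p = 0.671).

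TYS1, the gene of the tyrosyl-tRNA synthetase (chrVII:866336-867520), held 99.1, 98.2 and 105 CPM in 2% glucose 7 mM K and 159.6, 160.0 and 186 in 2% glucose 1 mM K. It held 59.3, 26.3 and 45.5 in 0.5% glucose 7 mM K and 194, 195 and 139 in 0.5% glucose 1 mM K. The groups fell into 3 levels that did not overlap: low in 0.5% glucose 7 mM K, intermediate in 2% glucose 7 mM K, and high in both media with 1 mM K, which overlapped each other. It rose with lower potassium at 0.5% glucose by 2.00 ± 0.25 (edgeR adjusted p = 7.52e-05), or 1.76 ± 0.17 without replicate 2, and was higher under potassium restriction than under glucose restriction by 1.94 ± 0.25 (edgeR adjusted p = 0.000129), or 1.70 ± 0.17. The change with lower glucose at 7 mM K was -1.20 ± 0.24 (edgeR adjusted p = 0.00275), or -0.94 ± 0.17. The rise at 2% glucose, 0.74 ± 0.24 (edgeR adjusted p = 0.0375), was lost without any 1 of the 6 libraries compared, at log2 fold changes of 0.65 to 0.80.

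GLN4, the glutaminyl-tRNA synthetase gene (chrXV:649303-651732), was the 1 synthetase gene that rose with lower glucose at 7 mM K, with SES1 added without replicate 2. Its level was 156, 155 and 159 CPM in 2% glucose 7 mM K and 202, 219.8 and 240.5 in 2% glucose 1 mM K. It held 236, 219 and 221 in 0.5% glucose 7 mM K and 297, 294 and 244 in 0.5% glucose 1 mM K. The single restrictions overlapped, at a level between neither restriction and both. GLN4 rose under both restrictions by 0.83 ± 0.13 (edgeR adjusted p = 0.000432). It rose by 0.49 ± 0.13 (edgeR adjusted p = 0.0176) with lower potassium at 2% glucose, a call lost without any library of 2% glucose 7 mM K or replicate 3 of 2% glucose 1 mM K, at 0.41 to 0.51. With lower glucose at 7 mM K the rise was 0.52 ± 0.13 (edgeR adjusted p = 0.0105), or 0.54 without replicate 2. Leaving out replicate 1 of 2% glucose 7 mM K gave 0.52, at an edgeR adjusted p = 0.0525.

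FRS1 and FRS2 encode the subunits of phenylalanyl-tRNA synthetase. Potassium restriction at 0.5% glucose raised FRS1 from 37.8 ± 26.4 to 228 ± 53.7 CPM, by 2.58 ± 0.46 (edgeR adjusted p = 0.000828) on the log2 scale. For FRS2 the means were 72.2 ± 36.9 and 169 ± 33.2 CPM and the change 1.23 ± 0.34 (edgeR adjusted p = 0.0111). Without replicate 2 the values were 2.15 and 0.88. HTS1, the histidyl-tRNA synthetase gene, rose by 2.11 ± 0.39 (edgeR adjusted p = 0.00107), or 1.70 without replicate 2. Of the other enzyme genes that rose there, DED81 (asparaginyl) was at 1.16, GRS1 (glycyl) at 1.17, GUS1 (glutamyl) at 0.78, MES1 (methionyl) at 1.41, THS1 (threonyl) at 1.39 and WRS1 (tryptophanyl) at 1.59. Without replicate 2 these were 0.75, 0.75, 0.61, 1.14, 0.96 and 1.20. The call of DED81 was lost without replicate 1 or 2 of 0.5% glucose 1 mM K (1.06 to 1.09), and that of GRS1 without either of them or any 1 of the 6 libraries of 2% glucose (1.03 to 1.17). The isoleucyl and alanyl enzyme genes ILS1 and ALA1 were at their highest in 2% glucose 7 mM K, at 502 ± 33.6 and 383 ± 14.8 CPM, and fell with lower glucose at 7 mM K, at -1.65 ± 0.30 (edgeR adjusted p = 0.00139) and -1.35 ± 0.22 (edgeR adjusted p = 0.000641), or -1.33 and -1.11 without replicate 2. CDC60 and VAS1, for leucyl- and valyl-tRNA synthetase, also fell there, at -0.96 ± 0.30 (edgeR adjusted p = 0.029) and -0.88 ± 0.31 (edgeR adjusted p = 0.0468), but the calls were lost without 3 and 9 single libraries. For CDC60 they were the 3 of 2% glucose 7 mM K, at -0.98 to -0.94. For VAS1 they were all 6 of 2% glucose, replicate 3 of 0.5% glucose 7 mM K and replicates 1 and 2 of 0.5% glucose 1 mM K, at -0.98 to -0.85.

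The synthetase genes that carry TGACTC can be set beside those that do not, as a description. With lower potassium at 2% glucose, 0 of the 7 with the core and 4 of the 11 without it rose, where 13.1% of all genes did, at median log2 fold changes of 0.03 and 0.66. For lower glucose at 7 mM K, 5 of the 7 and 4 of the 11 fell, where 17.0% of all genes did, at medians of -1.35 and -0.76, or -0.94 and -0.47 without replicate 2. At 0.5% glucose with lower potassium, 5 of the 7 and 8 of the 11 rose, where 23.5% of all genes did, at medians of 1.27 and 1.23, or 0.96 and 0.88 without replicate 2.

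Among the 13 initiation factor genes, lower potassium raised 2 at 2% glucose and 8 at 0.5% glucose and lowered 0 in either (in both comparisons DESeq2 and an unadjusted p under 0.05 also gave 0 down), where 13.1% and 23.5% of all genes rose and 15.0% and 24.9% fell. All 13 fold changes were above 0 in each comparison, with medians of 0.42 and 0.76. Without replicate 2, 8 and 10 rose and 0 fell, at medians of 0.44 and 0.60, against 26.6% and 29.6% of all genes that rose. Lower glucose at 7 mM K lowered 1, SUI2, and raised 1, SUI1, against 17.0% and 16.9% of all genes, at a median of -0.29. Without replicate 2 it lowered 1 and raised 3, where 21.8% of all genes fell and 22.0% rose, at a median of 0.00.

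SUI1 encodes eIF1, which guards the choice of the start codon (chrXIV:187170-187496), and was the 1 member that passed for lower glucose at both potassium levels with all 12 libraries. Its level was 96.3, 96.3 and 102 CPM in 2% glucose 7 mM K and 168, 113 and 136 in 2% glucose 1 mM K. It held 170.0, 195 and 213 in 0.5% glucose 7 mM K and 399, 537 and 552 in 0.5% glucose 1 mM K. No group overlapped another, and the medium with both restrictions was the highest. Lower glucose raised it by 0.97 ± 0.19 (edgeR adjusted p = 0.00186) at 7 mM K and by 1.84 ± 0.19 (edgeR adjusted p = 6.03e-05) at 1 mM K. With both restrictions the rise was 2.34 ± 0.19 (edgeR adjusted p = 3.5e-06). Without replicate 2, which lay within the range of its partners for this gene, the values were 0.96, 1.83 and 2.35. Lower potassium raised it at 0.5% glucose, by 1.36 ± 0.19 (edgeR adjusted p = 0.000149), or 1.38 without replicate 2, and gave 0.50 ± 0.18 (edgeR adjusted p = 0.063) at 2% glucose.

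CDC33, the gene of the cap-binding protein eIF4E (chrXV:60383-61024), held 111, 116 and 121 CPM in 2% glucose 7 mM K and 229, 223 and 215 in 2% glucose 1 mM K. It held 189, 84.6 and 188 in 0.5% glucose 7 mM K and 288, 279 and 215 in 0.5% glucose 1 mM K. The 2% glucose 7 mM K libraries were lower than all libraries with 1 mM K. It rose with lower potassium at 2% glucose by 0.94 ± 0.25 (edgeR adjusted p = 0.0175), a call lost without replicate 1 or 3 of 2% glucose 7 mM K (0.91 and 0.97), and under both restrictions by 1.16 ± 0.25 (edgeR adjusted p = 0.00303). At 0.5% glucose the rise was 0.76 ± 0.25 (edgeR adjusted p = 0.0263), lost without replicate 1 or 2 of 0.5% glucose 1 mM K (0.66 and 0.69), and 0.48 without replicate 2. Replicate 2 of 0.5% glucose 7 mM K was the lowest of the 12, and without it lower glucose at 7 mM K also raised CDC33, by 0.70 ± 0.13 (edgeR adjusted p = 0.000786) in place of 0.40 ± 0.25.

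SUI2, SUI3 and GCD11 encode the subunits of eIF2, which carries the initiator tRNA and whose alpha subunit, from SUI2, is the target of Gcn2. SUI2 (chrX:451020-451934) held 71.2, 71.1 and 76.7 CPM in 2% glucose 7 mM K and 82.4, 90.1 and 114 in 2% glucose 1 mM K. It held 57.8, 41.7 and 45.4 in 0.5% glucose 7 mM K and 80.8, 83.6 and 81.3 in 0.5% glucose 1 mM K. All 3 libraries of 0.5% glucose 7 mM K were below the other 9. It fell with lower glucose at 7 mM K, at -0.59 ± 0.15 (edgeR adjusted p = 0.0113), or -0.50 without replicate 2. It was higher under potassium restriction than under glucose restriction by 0.98 ± 0.15 (edgeR adjusted p = 0.000508), or 0.90. With lower potassium at 0.5% glucose, SUI2 rose by 0.76 ± 0.15 (edgeR adjusted p = 0.00195), SUI3 by 0.85 ± 0.22 (edgeR adjusted p = 0.00703) and GCD11 by 0.76 ± 0.17 (edgeR adjusted p = 0.00399). Without replicate 2 these were 0.68, 0.60 and 0.60. At 2% glucose, GCD11 alone of the 3 passed, at 0.60 ± 0.17 (edgeR adjusted p = 0.0234), and not without any of 5 single libraries (replicates 1, 2 and 3 of 2% glucose 7 mM K and replicates 2 and 3 of 2% glucose 1 mM K, at 0.52 to 0.64).

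TIF5, for the GTPase-activating factor eIF5, rose under both restrictions from 89.7 ± 4.99 to 239 ± 32.1 CPM, by 1.41 ± 0.29 (edgeR adjusted p = 0.00197), and with lower potassium at 0.5% glucose by 1.19 ± 0.29 (edgeR adjusted p = 0.00524), or 0.87 without replicate 2. TIF3, for the helicase partner eIF4B, rose in the latter by 0.96 ± 0.28 (edgeR adjusted p = 0.0141), a call lost without replicate 1 of 0.5% glucose 1 mM K (0.82), and 0.67 without replicate 2. PRT1, RPG1 and NIP1, which encode subunits of the scaffold eIF3, and TIF11, for eIF1A, passed in 0 of the 7 comparisons in edgeR with all 12 libraries; without replicate 2, PRT1 and TIF11 passed in at least 1. Their fold changes for potassium at 0.5% glucose were 0.90 ± 0.37, 0.40 ± 0.34, 0.22 ± 0.34 and 0.38 ± 0.30, or 0.51, 0.03, -0.14 and 0.05 without replicate 2.

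**Figure D3:**
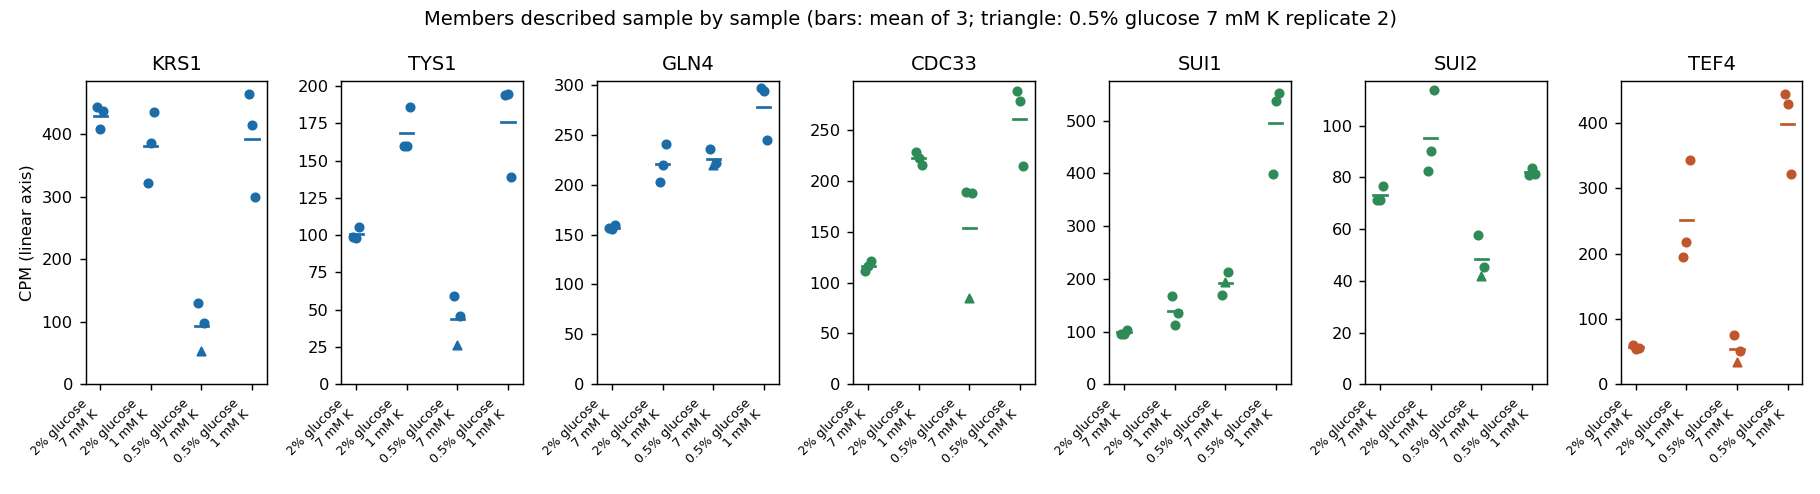
CPM (linear axis from 0) of KRS1, TYS1, GLN4, CDC33, SUI1, SUI2 and TEF4 in the 4 media; points are libraries, bars are means of 3, and the triangle is 0.5% glucose 7 mM K replicate 2. TEF4 lies at 54.5 to 59.96 CPM in 2% glucose 7 mM K and at 194.9 to 444 in the media with 1 mM K, and SUI1 is highest in 0.5% glucose 1 mM K, at 399 to 552.

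Elongation factor genes did not move in 1 direction, with TEF4 and YEF3 up and HEF3 down for lower potassium at 0.5% glucose. Of the 9 tested, lower potassium raised 2 and lowered 0 at 2% glucose (2 and 2 at an unadjusted p under 0.05 and in DESeq2), and raised 4 and lowered 1 at 0.5% glucose, at medians of 0.40 and 0.53. The shares of all genes were 13.1% up and 15.0% down at 2% glucose and 23.5% and 24.9% at 0.5% glucose. Without replicate 2 the counts were 3 up and 2 down at 2% glucose, where 26.6% of all genes rose and 23.9% fell. At 0.5% glucose they were 4 and 1, against 29.6% and 28.2%. Lower glucose at 7 mM K raised 2, HEF3 and HYP2, and lowered 2, YEF3 and TEF2, against 16.9% and 17.0% of all genes, at a median of -0.41. Without replicate 2 it raised 2 and lowered 2, where 22.0% of all genes rose and 21.8% fell, at a median of 0.08. EFB1 and EFT2 passed in 0 of the 7 comparisons in edgeR, with or without replicate 2.

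TEF4, which encodes a gamma subunit of the exchange factor eEF1B (chrXI:282891-284455), had the lowest adjusted p of all members for lower potassium at either glucose level. Its level was 59.96, 54.5 and 56.0 CPM in 2% glucose 7 mM K and 195, 218 and 344 in 2% glucose 1 mM K. It held 76.1, 34.5 and 51.7 in 0.5% glucose 7 mM K and 444, 429 and 322 in 0.5% glucose 1 mM K. The media split by potassium, with all 6 libraries of 1 mM K above all 6 of 7 mM K, and the 2 glucose levels overlapped at each. Lower potassium raised TEF4 by 2.15 ± 0.29 (edgeR adjusted p = 0.000253) at 2% glucose and by 2.88 ± 0.30 (edgeR adjusted p = 2.47e-05) at 0.5% glucose, where the value was 2.65 ± 0.26 without replicate 2. Under both restrictions it was 2.81 ± 0.30 (edgeR adjusted p = 2.2e-05), and lower glucose at 7 mM K gave -0.07 ± 0.28 (edgeR adjusted p = 0.874). EFB1, which encodes the alpha subunit of the same factor, held 452 ± 2.39, 599 ± 118, 339 ± 246 and 577 ± 104 CPM in the 4 media in the same order, and in 0.5% glucose 7 mM K its replicates 1, 2 and 3 held 529.7, 62.0 and 427 CPM.

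YEF3 and HEF3 are paralogs for eEF3, the ATPase that clears spent tRNA from the ribosome, and went in opposite directions with lower glucose at 7 mM K. YEF3 (chrXII:636780-639914) held 1140.3, 1118 and 1174 CPM in 2% glucose 7 mM K and 1361, 1569 and 1596 in 2% glucose 1 mM K. It held 468, 54.8 and 315 in 0.5% glucose 7 mM K and 1836, 1703 and 1090.0 in 0.5% glucose 1 mM K. For HEF3 (chrXIV:606319-609453) the 2% glucose libraries held 359.6, 347 and 373 CPM with 7 mM K and 206, 200.3 and 201 with 1 mM K. The 0.5% glucose libraries held 1032, 2265 and 830.2 CPM with 7 mM K and 279, 267 and 401 with 1 mM K. In 0.5% glucose 7 mM K all 3 libraries had the lowest YEF3 and the highest HEF3 of the 12, with replicate 2 the most extreme in both, and in the other media YEF3 exceeded HEF3.

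With lower glucose at 7 mM K, YEF3 fell, at -2.03 ± 0.55 (edgeR adjusted p = 0.0144), and HEF3 rose by 1.93 ± 0.34 (edgeR adjusted p = 0.00108). Without replicate 2 the values were -1.55 ± 0.24 and 1.37 ± 0.18, and YEF3 was at -2.63 without replicate 1 of 0.5% glucose 7 mM K. Lower potassium at 0.5% glucose raised YEF3 by 2.47 ± 0.56 (edgeR adjusted p = 0.00388) and lowered HEF3, at -2.12 ± 0.34 (edgeR adjusted p = 0.000424), or 1.99 ± 0.24 and -1.55 ± 0.18 without replicate 2. HEF3 made up 23.9% of the summed CPM of the pair in 2% glucose 7 mM K, 11.9% in 2% glucose 1 mM K, 79.7% in 0.5% glucose 7 mM K (68.8%, 97.6% and 72.5% in its replicates) and 17.9% in 0.5% glucose 1 mM K. The sum was 1504 ± 41.3, 1711 ± 125, 1655 ± 602 and 1858 ± 327 CPM, and fitted as 1 gene it passed in 0 of the 7 comparisons in edgeR, with log2 fold changes of -0.02 to 0.31. At 2% glucose, lower potassium gave 0.40 ± 0.53 (edgeR adjusted p = 0.597) for YEF3 and -0.83 ± 0.33 (edgeR adjusted p = 0.079) for HEF3, and without replicate 2 of 0.5% glucose 7 mM K HEF3 fell there, at -0.81 ± 0.16 (edgeR adjusted p = 0.00112).

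HYP2 and ANB1 encode eIF5A, which carries the modified residue hypusine and helps ribosomes through stalling sequences; ANB1 is known as the form used when oxygen is low. HYP2 (chrV:85676-86149) held 337, 362 and 354 CPM in 2% glucose 7 mM K and 607, 606 and 626 in 2% glucose 1 mM K. It held 558, 514 and 515 in 0.5% glucose 7 mM K and 706, 747 and 837 in 0.5% glucose 1 mM K, with no overlap between the 4 groups. With lower potassium at 2% glucose it rose by 0.80 ± 0.16 (edgeR adjusted p = 0.00374). Under both restrictions the rise was 1.12 ± 0.17 (edgeR adjusted p = 0.000214). The rises of 0.59 ± 0.16 with lower glucose at 7 mM K and 0.53 ± 0.16 with lower potassium at 0.5% glucose were each lost without 2 single libraries. The former was lost without replicate 1 or 3 of 2% glucose 7 mM K (0.57 and 0.60). The latter was lost without replicate 3 of 0.5% glucose 7 mM K or replicate 2 of 0.5% glucose 1 mM K (0.47 and 0.51). Without replicate 2 of 0.5% glucose 7 mM K the values were 0.61 and 0.52.

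ANB1 (chrX:524908-525381) had too few counts to pass the filter and was not tested with it. It held 5, 8 and 5 counts in 2% glucose 7 mM K, 9, 10 and 4 in 2% glucose 1 mM K, 88, 3 and 78 in 0.5% glucose 7 mM K and 3, 8 and 5 in 0.5% glucose 1 mM K. Replicates 1 and 3 of 0.5% glucose 7 mM K stood above the other 10 libraries, and replicate 2 was among them. Fitted without the filter, ANB1 rose with lower glucose at 7 mM K by 3.06 ± 0.79 (edgeR adjusted p = 0.0109), and without replicate 2 by 3.60 ± 0.41. At its highest it made up 2.11% of the pair's summed CPM.

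The eEF1A genes TEF1 and TEF2 are best read as a pair because of their near-identity. TEF1 made up 23.4% ± 0.504 of their summed CPM in 2% glucose 7 mM K, 41.5% ± 0.713 in 2% glucose 1 mM K, 26.3% ± 8.26 in 0.5% glucose 7 mM K and 28.5% ± 5.75 in 0.5% glucose 1 mM K. As deposited, TEF2 fell with lower glucose at 7 mM K, at -0.74 ± 0.23 (edgeR adjusted p = 0.0259), a call lost without any library of 2% glucose 7 mM K (-0.78 to -0.71), and -0.63 without replicate 2. Lower potassium at 2% glucose gave -0.63 ± 0.23 for TEF2 and 0.60 ± 0.35 for TEF1. The sum held 14700 ± 927, 12497 ± 453, 9312 ± 2172 and 13068 ± 298 CPM in the 4 media, in the same order, and passed in 0 of the 7 comparisons in edgeR, at log2 fold changes of -0.66 to 0.72.

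For eIF4A, an RNA helicase, TIF1 made up 35.0% ± 1.10 of the pair in 2% glucose 7 mM K, 50.8% ± 0.499 in 2% glucose 1 mM K, 30.8% ± 14.2 in 0.5% glucose 7 mM K and 49.9% ± 2.81 in 0.5% glucose 1 mM K. The sum of TIF1 and TIF2 rose with lower potassium at 0.5% glucose by 0.85 ± 0.23 (edgeR adjusted p = 0.00924). TIF1 rose there by 1.46 ± 0.41 (edgeR adjusted p = 0.0125), or 1.05 without replicate 2, and TIF2 gave 0.42 ± 0.16, or 0.39. The eEF2 genes, which encode the translocase of the ribosome, gave 33.8% ± 0.425, 36.5% ± 0.591, 25.6% ± 3.69 and 37.9% ± 0.679 for EFT1 in the same order, and their sum passed in 0 of the 7 comparisons in edgeR, at -0.12 to 0.29. EFT1 as deposited rose with lower potassium at 0.5% glucose by 0.79 ± 0.25 (edgeR adjusted p = 0.0203), or 0.58 without replicate 2, a call lost without replicate 1 or 2 of 0.5% glucose 1 mM K (0.66 to 0.73).

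**Figure D4:**
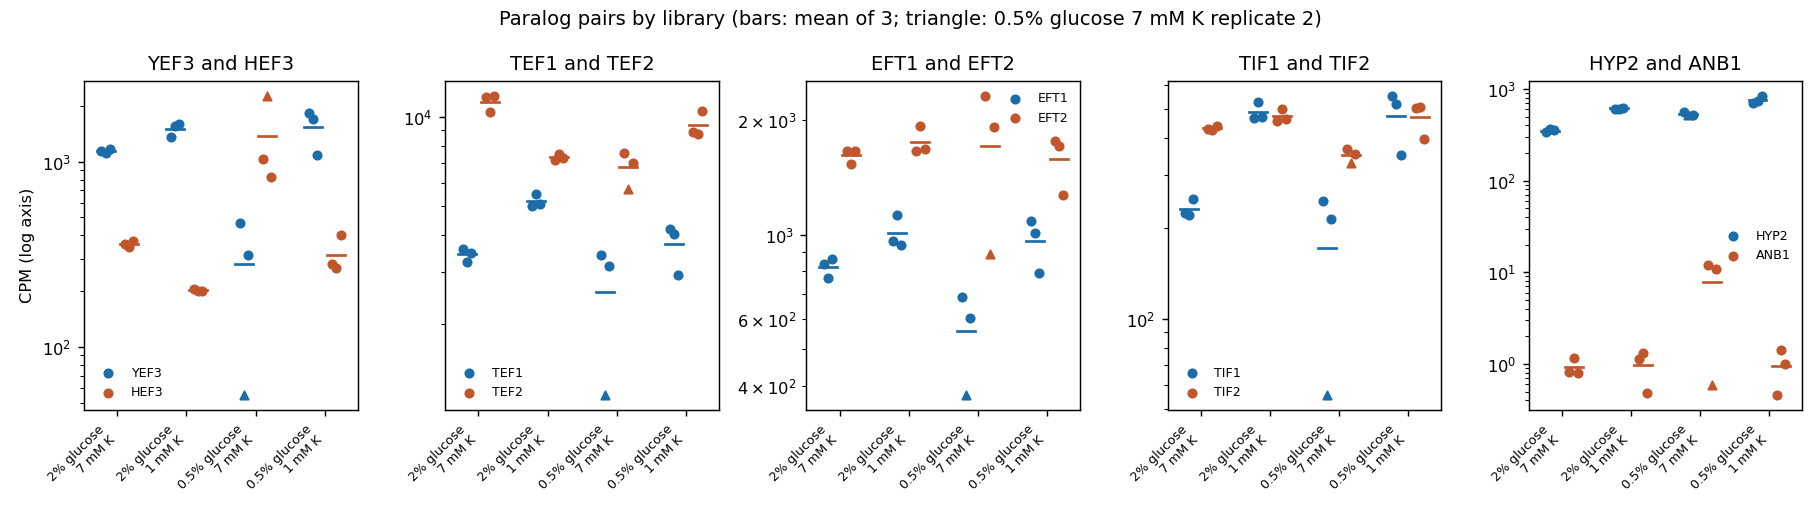
CPM (log axis) of 5 paralog pairs in the 4 media; points are libraries, bars are means of 3, and triangles mark 0.5% glucose 7 mM K replicate 2. In that medium HEF3 lies at 830.2 to 2265 CPM and YEF3 at 54.8 to 468, the reverse of the order in the other 3 media.

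The interaction tested whether the effect of potassium differed between the glucose levels. Of the 40 members tested, 6 passed, all with a more positive effect of lower potassium at 0.5% glucose, and 0 passed in the other direction in edgeR (9 and 1 at an unadjusted p under 0.05, 7 and 1 in DESeq2), where 14.8% and 15.2% of all genes passed. At an unadjusted p under 0.05, 2521 of the 6127 genes passed in either direction, and in DESeq2 1127 passed upward and 1022 downward. KRS1 differed by 2.25 ± 0.41 (edgeR adjusted p = 0.0019), ILS1 by 1.67 ± 0.41 (edgeR adjusted p = 0.0106), ALA1 by 1.48 ± 0.31 (edgeR adjusted p = 0.00403), TYS1 by 1.26 ± 0.34 (edgeR adjusted p = 0.0157), TEF2 by 1.10 ± 0.32 (edgeR adjusted p = 0.0231) and SUI1 by 0.86 ± 0.26 (edgeR adjusted p = 0.0262). TEF1 and TEF2 fitted as 1 gene gave 0.72 ± 0.34 (edgeR adjusted p = 0.132) and did not pass. Without replicate 2 the 6 values were 1.95, 1.35, 1.23, 1.00, 0.99 and 0.87. In that fit 12 of the 40 passed upward and 3 (CDC33, HEF3 and SES1) downward, and 23.9% and 23.6% of all genes did. The calls of TEF2 and SUI1 were each lost without single libraries, 3 for TEF2 (replicates 1 and 3 of 2% glucose 7 mM K and replicate 1 of 2% glucose 1 mM K, at 1.03 to 1.06). For SUI1 they were 8 (all 3 of 2% glucose 7 mM K, replicates 2 and 3 of 2% glucose 1 mM K, replicate 1 of 0.5% glucose 7 mM K and replicates 2 and 3 of 0.5% glucose 1 mM K, at 0.69 to 0.84).

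The scaling set how many differed. With library totals alone 1 member passed upward and 1 downward, with WBGene rows 1 and 2, and with upper-quartile scaling 5 and 1, where the median of all genes shifted by -0.32, -0.64 and -0.24. Of all 6127 genes, 548 passed upward and 1247 downward with library totals, 337 and 1712 with WBGene rows and 669 and 1359 with upper-quartile scaling. KRS1 was the only one of the 6 that passed in every alternative run. The calls of ILS1, ALA1 and TYS1 were lost with library totals, at 1.31, 1.12 and 0.92, and with WBGene rows, at 0.97, 0.79 and 0.58. The medians of the synthetase, initiation and elongation factor genes were 0.75, 0.35 and 0.36, and those of the initiation and elongation factor genes were negative with library totals (-0.02 and -0.04), with WBGene rows (-0.34 and -0.38) and without replicate 2 (-0.01 and -0.14), whereas that of the synthetase genes stayed above 0 in these fits (0.41, 0.10 and 0.56).

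**Figure D5:**
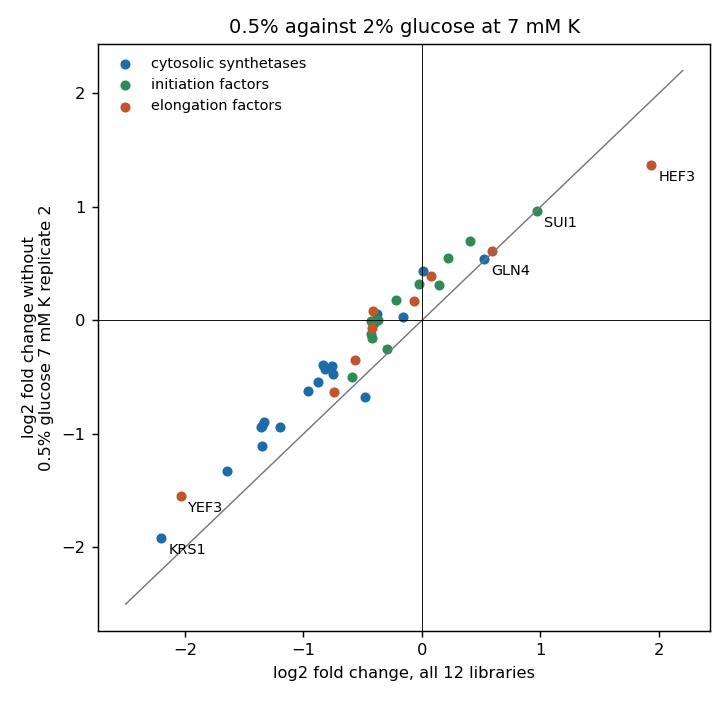
Log2 fold change of the 40 tested members for lower glucose at 7 mM K, with all 12 libraries (horizontal axis) and without 0.5% glucose 7 mM K replicate 2 (vertical axis); the line marks equal values. KRS1 and YEF3 stay below -1.5 on both axes and HEF3 above 1.3, while the median of the 40 moves from -0.42 to -0.14.

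The genes of related steps were followed as listed groups. In a list of 5 genes that held further cytosolic synthetase genes and ARC1, a cofactor that binds the methionyl and glutamyl enzymes, lower glucose at 7 mM K lowered 4 and raised 0 in edgeR (4 and 0 at an unadjusted p under 0.05 and in DESeq2), against 17.0% and 16.9% of all genes. At an unadjusted p under 0.05, 2674 of the 6127 genes passed in either direction, and in DESeq2 1202 fell and 1155 rose. Without replicate 2 lower glucose lowered 3 of the 5 and raised 0, where 21.8% of all genes fell and 22.0% rose. YHR020W was at -2.04 ± 0.45 (edgeR adjusted p = 0.0046), or -1.59 without replicate 2. ARC1 gave 0.55 ± 0.17 (edgeR adjusted p = 0.0292) with lower potassium at 2% glucose and 0.79 ± 0.17 (edgeR adjusted p = 0.00239) at 0.5% glucose, or 0.77 without replicate 2. GRS2, a paralog of the glycyl enzyme gene GRS1, fell under both restrictions, at -1.08 ± 0.15 (edgeR adjusted p = 0.000178), with 111, 102 and 107 CPM in 2% glucose 7 mM K and 41.4, 49.0 and 61.3 in 0.5% glucose 1 mM K.

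Of 14 mitochondrial synthetase genes, lower potassium raised 4 and lowered 0 at 2% glucose (7 and 0 at an unadjusted p under 0.05, 4 and 0 in DESeq2), and raised 0 and lowered 2 at 0.5% glucose (0 and 3 at an unadjusted p under 0.05, 0 and 2 in DESeq2). The shares of all genes were 13.1% and 15.0% at 2% glucose and 23.5% and 24.9% at 0.5% glucose. Without replicate 2 the counts were 7 up and 0 down at 2% glucose, against 26.6% and 23.9% of all genes. At 0.5% glucose they were 1 and 4, against 29.6% and 28.2%. MSM1, for the mitochondrial methionyl enzyme, held 24.1, 27.1 and 26.9 CPM in 2% glucose 7 mM K and 38.5, 40.6 and 44.6 in 2% glucose 1 mM K. It held 44.8, 42.1 and 49.4 in 0.5% glucose 7 mM K and 23.0, 26.0 and 18.8 in 0.5% glucose 1 mM K. Either restriction by itself was above neither and above both, with no overlap, and its interaction was -1.67 ± 0.22 (edgeR adjusted p = 0.000274), or -1.73 without replicate 2. In the interaction 3 mitochondrial synthetase genes passed downward and 0 upward in edgeR (4 and 0 at an unadjusted p under 0.05, 3 and 0 in DESeq2), against 15.2% and 14.8% of all genes. Without replicate 2, 7 passed downward and 1 upward, against 23.6% and 23.9% of all genes. Among 7 mitochondrial translation factor genes, lower glucose at 1 mM K lowered 3 and raised 0 (3 and 0 at an unadjusted p under 0.05 and in DESeq2), against 18.4% and 16.3% of all genes. It lowered 4 without replicate 2, against 26.9% of all genes. There the recycling factor gene RRF1 fell, at -1.27 ± 0.22 (edgeR adjusted p = 0.00114) with all 12 libraries, and the elongation factor gene TUF1 rose with lower potassium at 0.5% glucose by 0.83 ± 0.15 (edgeR adjusted p = 0.00105), or 0.76 without replicate 2.

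Of 18 further initiation factor and regulator genes, lower potassium at 0.5% glucose raised 9 and lowered 0 in edgeR (12 and 0 at an unadjusted p under 0.05 and in DESeq2), against 23.5% and 24.9% of all genes. It raised 12 and lowered 0 without replicate 2, against 29.6% and 28.2% of all genes. DED1, a helicase that opens mRNA leaders, held 314, 284 and 294 CPM in 2% glucose 7 mM K and 163, 179.7 and 148 in 2% glucose 1 mM K. It held 103, 77.8 and 76.0 in 0.5% glucose 7 mM K and 326, 422 and 1199 in 0.5% glucose 1 mM K, with replicate 3 of the last group well above its partners. Its interaction was 3.78 ± 0.56 (edgeR adjusted p = 0.000562), or 3.72 without 0.5% glucose 7 mM K replicate 2. Its paralog DBP1 was lower under potassium restriction than under glucose restriction, at -2.19 ± 0.29 (edgeR adjusted p = 0.000177), or -1.81 without replicate 2. The eIF4G genes, which encode the scaffold of the cap-binding complex, differed: TIF4632 fell with lower glucose at 7 mM K, at -1.59 ± 0.17 (edgeR adjusted p = 3.49e-05), or -1.40, and TIF4631 gave -0.39 ± 0.29 (edgeR adjusted p = 0.322). CAF20, which binds eIF4E and competes with eIF4G, rose with lower potassium at 2% glucose by 1.33 ± 0.24 (edgeR adjusted p = 0.00193).

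Among 12 other elongation, termination and modification genes, lower potassium at 0.5% glucose raised 6 and lowered 0 (6 and 0 at an unadjusted p under 0.05 and in DESeq2), against 23.5% and 24.9% of all genes. It raised 5 and lowered 1 without replicate 2, against 29.6% and 28.2% of all genes. DYS1 and LIA1 encode the enzymes that make hypusine on eIF5A. DYS1 rose by 2.58 ± 0.50 (edgeR adjusted p = 0.00151) and LIA1 by 1.93 ± 0.37 (edgeR adjusted p = 0.00142), or 2.11 and 1.56 without replicate 2. The ribosome-associated STM1 rose there by 1.31 ± 0.37 (edgeR adjusted p = 0.0127), or 0.93. The release factor genes SUP35 and SUP45 gave -0.15 ± 0.14 and 0.33 ± 0.33.

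Of the 6 general amino acid control genes, both restrictions lowered 3 and raised 1, with or without replicate 2 of 0.5% glucose 7 mM K. Of all genes, 24.5% fell and 22.8% rose with that library, and 31.3% and 33.4% without it. GCN4, whose protein is known to be controlled at translation rather than by its RNA, was at 1742 ± 115, 1331 ± 77.0, 1354 ± 59.2 and 1081 ± 29.5 CPM in 2% glucose 7 mM K, 2% glucose 1 mM K, 0.5% glucose 7 mM K and 0.5% glucose 1 mM K. It fell under both restrictions, at -0.69 ± 0.19 (edgeR adjusted p = 0.0105). GCN2 fell there, at -0.77 ± 0.14 (edgeR adjusted p = 0.000954), and with lower potassium at 0.5% glucose, at -0.99 ± 0.14 (edgeR adjusted p = 0.000199), or -1.08 without replicate 2, the only one of the 6 to fall in the latter comparison. There 3 rose, against 23.5% of all genes, and 2 without replicate 2, against 29.6%.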

How the data were processed

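RNA of 12 yeast libraries was sequenced as 150-base read pairs. The authors aligned reads with STAR 2.7.1a in 2 passes to build R64-1-1, per the labels' protocols, and RSEM 1.3.3 is named in the submitters' processing notes. The deposited table holds expected counts, which were whole numbers in every cell, for 46904 rows. Its 39777 rows with WBGene identifiers were used only as an alternative scaling. The 7127 yeast rows, of which 6444 were named through the R64 annotation, were analysed with edgeR 4.0.16 in R 4.3.3 (filterByExpr by group, TMM, robust quasi-likelihood fit of all 12 libraries and 4 groups, 8 residual degrees of freedom), with Benjamini-Hochberg adjustment over 6127 genes. The SE is the log2 fold change divided by the root of F. DESeq2 1.42.0 was an alternative, with other scalings, no filter, compared groups only, summed paralogs, a replicate block and each library left out. On simulated data for potassium at 2% glucose, the fit over 6055 genes recovered 86% of 4-fold and 44% of 2-fold changes. Figures were drawn with matplotlib 3.10.9.

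The members and lists were chosen with earlier results of these data known. Described library by library were, in each role and comparison, the called member with the smallest adjusted p in each direction, the member of each role with the smallest adjusted p in the interaction, and the paralog pairs; other members were chosen after their values were seen. Total yeast counts of 5634205 to 7036345 per library limit the precision of low genes such as ANB1.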

Additional observations from a re-analysis of the deposited data

Results flagged for a closer look

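The following 6 results were picked out because the effect of potassium differed between the glucose levels in the interaction test. On the log2 scale, the effect at 0.5% glucose minus that at 2% glucose was 2.25 for KRS1, 1.67 for ILS1, 1.48 for ALA1, 1.26 for TYS1, 1.10 for TEF2 and 0.86 for SUI1. For KRS1, ILS1, ALA1 and TYS1 the call held without each library in turn, and for TEF2 and SUI1 it did not. How counts were divided between TEF1 and TEF2 is uncertain, and their sum gave 0.72 (edgeR adjusted p = 0.132). With library totals, ILS1, ALA1 and TYS1 lost the call at 1.31, 1.12 and 0.92 (edgeR adjusted p = 0.0794, 0.0549 and 0.156), and with WBGene scaling at 0.97, 0.79 and 0.58 (edgeR adjusted p = 0.17, 0.169 and 0.357). KRS1 was the only one of the 6 that passed in every alternative run. The medium with 0.5% glucose and 7 mM K enters each of these values, and its replicate 2 was the lowest of the 12 libraries for 35 of the 40 tested members; its part was not tested beyond the values without it.

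The rows with WBGene identifiers took up to 41.6% of all counts in a library, and what they measure is not given in the sources used here. Their own levels were not compared between media, and they served only as an alternative scaling.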

How the results depend on the processing

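No member's called change reversed its direction in any alternative. Of 91 calls of members over the 7 comparisons, 62 held without each library in turn and 38 in every alternative in which they were fitted. Fits of the compared groups alone did not cover the interaction. Summed paralogs covered 74 of the 91 calls, because genes of the summed pairs had no fit of their own there. Calls of YEF3 and HEF3 are among the 38, although their sum passed in none of the 7 comparisons. The number of members called with lower potassium at 2% glucose, 8 as reported, was 15 with upper-quartile scaling, 28 when the compared groups were fitted alone, 14 with DESeq2, and 2 to 24 with 1 library left out. The counts over all genes moved too. As reported 803 rose and 916 fell, against 1238 and 588, 1778 and 1612, and 944 and 1188 in those settings, in that order. With 1 library left out, 502 to 1640 of all genes rose and 573 to 1471 fell. At 0.5% glucose, 26 members were called, against 16 with library totals, 9 with WBGene scaling, 14 with the compared groups alone and 22 to 30 with 1 library left out. Over all genes 1441 rose and 1525 fell, against 1089 and 1520, 628 and 1985, and 851 and 954 in those settings. With 1 library left out, 1149 to 1824 rose and 1281 to 1741 fell. For glucose at 7 mM K the 16 calls became 9 with library totals, 8 with WBGene scaling, 9 with the compared groups alone and 11 to 22 with 1 library left out. Over all genes 1035 rose and 1042 fell, against 1035 and 777, 993 and 563, and 704 and 796 in those settings. With 1 library left out, 667 to 1358 rose and 788 to 1343 fell. For glucose at 1 mM K the count of 1 became 2 with WBGene scaling, 5 with the compared groups alone, 5 with DESeq2 and 1 to 11 with 1 library left out. Over all genes 1001 rose and 1129 fell, against 436 and 1903, 1242 and 1323, and 1181 and 1207 in those settings. With 1 library left out, 722 to 1493 rose and 925 to 1659 fell. The 10 calls under both restrictions became 24 with the compared groups alone and 7 to 24 with 1 library left out. Over all genes 1400 rose and 1504 fell, against 1959 and 1975 with the compared groups alone. With 1 library left out, 992 to 2056 rose and 1242 to 1930 fell. Between the single restrictions, 24 became 13 with the compared groups alone and 20 to 30 with 1 library left out. Over all genes 1279 were higher and 1413 lower, against 739 and 723 with the compared groups alone. With 1 library left out, 1001 to 1535 were higher and 1069 to 1507 lower. The 6 interaction calls became 2 with library totals, 3 with WBGene scaling and 4 to 16 with 1 library left out. Over all genes 904 passed upward and 931 downward, against 548 and 1247 with library totals and 337 and 1712 with WBGene scaling. With 1 library left out, 660 to 1475 passed upward and 685 to 1452 downward. The cause of these shifts was not tested. Replicate numbers did not pair the samples (18 same-numbered pairs correlated at -0.34 to 0.31, with 3 over 0.1). With the replicate block the counts were 6, 26, 14, 1, 10, 24 and 4 in the order above, and 85 of the 91 calls held. Over all genes, 662, 1360, 845, 880, 1288, 1175 and 776 passed upward in that fit, in the same order. Downward, 741, 1382, 947, 989, 1393, 1202 and 758 passed.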
